A study of Mus musculus with 5 samples.

Results

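The p53 family in the mouse consists of Trp53, Trp63 and Trp73, listed in the guide library as TRP53, TRP63 and TRP73. Its members here were all guide RNAs assigned to 1 of these 3 genes, which gave 30 guides, 10 per gene, of 17820 guides in all. The library, called a CRISPR TF library by the submitters, covered 1682 genes and held 1000 non-targeting guides. In the pooled CRISPR screen a lentivirus delivered guides to mouse embryonic stem (ES) cells. The share of reads on a guide measured how common the cells carrying it were. A library was read at each of days 5, 8 and 12 after transduction, and 2 libraries were read from the plasmid pool (labelled Maxiprep) before it entered cells. The day numbers are those of the sample titles, which count from transduction, whereas the treatment protocol counts its first time point from selection. All cells carried the genotype label Ainv15(iNgn2 Tubb3::GFP), were transduced in the presence of polybrene and were kept under Zeocin, an antibiotic of the bleomycin family, in ES cell medium. The plasmid libraries carry the same genotype and cell type labels, although their titles describe a plasmid preparation.

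The 3 genes code for related transcription factors that bind DNA as tetramers through a shared kind of DNA-binding domain. p53 itself is held low by the inhibitors MDM2 and MDM4, is stabilised after DNA damage and other stress, and switches on genes of cell cycle arrest and cell death; in ES cells it is also known to promote differentiation. p63 is known for its role in stratified epithelia and in the oocyte, and p73 for roles in the nervous system and in ciliated epithelia. Loss of a gene that restrains the growth or survival of cultured cells raises the share of its guides, and loss of a gene that cells need lowers it.

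There was 1 library per time point, so no comparison here has replicate cultures, and whether the time points were drawn from 1 culture is not stated in the labels. All 3 cell libraries had passed through transduction and Zeocin, and no unselected cells were analysed here, so effects of growth, transduction and selection cannot be told apart. Library totals were between 1008492 and 3541896 reads, with a median of 47 to 178 reads on the guides kept. Only guides with at least 30 reads in each plasmid library were used, which kept 15336 guides. Of the family, 24 of 30 guides were kept: 9 to Trp53, 6 to Trp63 and 9 to Trp73. Guide counts carry no expression values, so the cell type label was not checked against marker genes, and the p53 status of the parent cells was not measured.

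Trp53 (gene ID 22059) lies on chromosome 11 from 69580348 to 69591873, Trp63 (gene ID 22061) on chromosome 16 from 25683763 to 25892088, and Trp73 (gene ID 22062) on chromosome 4 from 154056249 to 154139875, all in RefSeq's annotation of GRCm38.p6, the assembly behind the build mm10 that the submitters name. The exons that the guides cut were not analysed here. None of the guides matched, on either strand, the 3 promoter windows that RefSeq gives for the family. The guides are named below by gene and by their order in the library, such as Trp53-1 to Trp53-10. The sequences below are those whose values matter most in what follows, printed 5′ to 3′, and capitals mark bases that a guide shares with another guide to the same gene on either strand.

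For Trp53, guides 9, 4 and 8 tile a stretch of the same strand, guides 1 and 2 are shifted by 3 bases, and guide 7 overlaps no other:
Trp53-9: ataagcctGAAAATGTCTCC
Trp53-4: GAAAATGTCTCCTGGCTCAG
Trp53-8: CCTGGCTCAGagggagctcg
Trp53-2: caaGAAGTCACAGCACATGA
Trp53-1: GAAGTCACAGCACATGAcgg
Trp53-7: cggacacggctcccagctgg

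For Trp63, guides 4 and 8 share 12 bases on opposite strands, and guide 10 overlaps no other:
Trp63-4: aaaccccaGCTCATTTCTCG
Trp63-8: tctttccaCGAGAAATGAGC
Trp63-10: cagatatgctggaagacctc

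For Trp73, guides 1 and 2 share 19 bases on opposite strands, guides 9 and 10 share 17 on the same strand, and guides 4 and 5 overlap no other:
Trp73-1: AGTACCGTATGACCATCTGG
Trp73-2: TCCAGATGGTCATACGGTAC
Trp73-9: GCTGGGGTCTGCATGATagg
Trp73-10: gagGCTGGGGTCTGCATGAT
Trp73-4: cctcgatggtaaggttctgc
Trp73-5: atcgagtgcttcacttccca

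Guides that overlap are not separate targets. Among the 30 guides there were 12 pairs sharing 10 or more bases, 3 of them in Trp53, 2 in Trp63 and 7 in Trp73. No family guide was within 3 mismatches of any other guide in the library when aligned end to end. The fewest mismatches to a guide of another gene were 4, for Trp53-2.

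Guides to Trp53 made up far more of every cell library than of the plasmid pool. The 10 guides together held 0.0719% of reads (95% exact binomial interval 0.0692% to 0.0748%) in plasmid library 1 and 0.0740% (0.0695% to 0.0787%) in plasmid library 2. They held 0.346% (0.334% to 0.357%) at day 5, 0.414% (0.402% to 0.426%) at day 8 and 0.313% (0.303% to 0.324%) at day 12. These intervals cover counting error only, since reads made by PCR are not independent molecules. The shares were 4.74, 5.67 and 4.29 times the mean plasmid share at the 3 days. By summed reads Trp53 stood at place 158 and 133 of 1682 genes in the plasmid libraries, at place 1 at days 5 and 8, and at place 2 at day 12.

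The shares of the other family members moved much less. Trp63 guides held 0.0451% and 0.0450% of reads in the plasmid libraries, and 0.0536%, 0.0659% and 0.0696% at days 5, 8 and 12. Trp73 guides held 0.0525% and 0.0567% in the plasmid libraries, and 0.0664%, 0.0655% and 0.0705% at days 5, 8 and 12. At day 12 this was 1.54 times the plasmid mean for Trp63 and 1.29 times for Trp73.

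Every Trp53 guide held a larger share in the cells than in the plasmid pool, though to different degrees. The guide Trp53-8 had 470 and 219 reads in plasmid libraries 1 and 2, and 1045, 1278 and 772 reads at days 5, 8 and 12. It was the most abundant of all 17820 guides at days 5 and 8 and the second most abundant at day 12. Trp53-7 had 251 and 89 plasmid reads, then 497, 603 and 543 reads in the cells. It had the highest change against plasmid of all kept guides at days 5 and 8, and was at place 4 at day 12. Trp53-4, which shares bases with Trp53-8, had 474 and 136 plasmid reads and 457, 644 and 563 reads in the cells. Plasmid library 1 had 3.27 times the reads of the deepest cell library, so equal read numbers mean a larger share in the cells.

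Trp53-5 had 385 and 188 reads in the plasmid libraries and 480, 505 and 399 reads at days 5, 8 and 12. Trp53-10 had 276 and 92 plasmid reads and 225, 320 and 209 reads in the cells. These were the smallest changes among the guides that overlap no other. Trp53-6 had 162 and 61 plasmid reads and 223, 259 and 207 reads in the cells. Trp53-2 had 187 and 97 plasmid reads and 207, 267 and 139 reads in the cells. Trp53-2 ended with the lowest change of the kept Trp53 guides at day 12. Trp53-1, shifted from it by 3 bases, had 132 and 56 plasmid reads and 227, 238 and 129 reads in the cells. Trp53-9 had 126 and 37 plasmid reads and 160, 206 and 83 reads in the cells. The guide set aside, Trp53-3, had 85 and 24 plasmid reads and 152, 162 and 116 reads in the cells. Of the 10 guides, 8 had fewer reads at day 12 than at day 5, the exceptions being Trp53-4 and Trp53-7. The day 12 library was also smaller, with 1008492 reads against 1063071 at day 5. With the scaling for depth described below, Trp53-6 and Trp53-10 were also slightly higher at day 12, each by 0.07 log2 units. On that scale 4 of the kept guides were higher and 5 lower.

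For the comparison of cells with the plasmid pool, counts were scaled to CPM, a common library size, with TMM factors. The change of a guide is log2 of its CPM in the cells plus 1, minus log2 of its mean plasmid CPM plus 1. The value of a gene was the median over its kept guides, with the SD over those guides. The median change of Trp53 was 2.19 (SD 0.45, 9 guides) at day 5, 2.39 (SD 0.41) at day 8 and 1.79 (SD 0.58) at day 12, which is 4.57-fold, 5.26-fold and 3.45-fold. All 9 guides lay between 1.53 and 2.77 at day 5, between 1.93 and 3.03 at day 8, and between 1.25 and 3.07 at day 12. On this scale the guide set aside, Trp53-3, had changes of 2.73, 2.81 and 2.52.

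At day 5 the gene stood alone at the top of the library. A median log2 change of 1 or more was reached by 0.0595% of the 1682 genes at day 5, which was Trp53 alone, by 0.178% at day 8 and by 1.19% at day 12. The next gene at day 5 was Ints12, an Integrator subunit gene, with a median of 0.84. At day 8 Trp53 was again first, ahead of Ints12 at 1.31. At day 12 it was at place 5, below the histone demethylase gene Kdm5b (2.59), the splicing factor gene Srsf6 (2.32), the histone methyltransferase gene Kmt2d (2.13) and the coactivator gene Ncoa3 (2.00).

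The non-targeting guides, which cut no intended gene, give a second reference. Over 893 kept guides their median stood at 0.41, 0.54 and 0.58 on days 5, 8 and 12, above the typical guide to a gene at -0.02, -0.04 and -0.07. Against this level the Trp53 median was higher by 1.78, 1.86 and 1.21 log2 units. Of the 893 non-targeting guides, between 0 and 8 reached the value of any single kept Trp53 guide at day 5, and 0 or 1 did so at day 8. At day 12 between 0 and 99 did so, with the most for Trp53-2. Every kept guide lay above the non-targeting median in 0.0595% of genes at day 5 and in 0.0595% at day 8, in each case Trp53 alone. At day 12 this held for 0.416% of genes, which were Trp53, Ezh2, Kdm5b, Rarg, Rxra, Spen and Tfap2c.

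The course of Trp53 over the days was not a steady rise. At day 8 against day 5 all 9 guides lay above 0, with a median log2 change of 0.28, and 7 of 9 lay above the non-targeting median of 0.12. For this interval the median was at place 99 of 1682 genes from the top, and the typical guide to a gene stood at -0.02. Scaled to the non-targeting guides the Trp53 median was 1.76 at day 5 and 1.83 at day 8. At day 12 against day 8 the median log2 change was -0.42 (SD 0.39), and 8 of 9 guides lay below 0. All 9 lay below the non-targeting median of 0.05 for that interval. So did the median over all guides to genes, at -0.0047, and the share of genes with all guides below 0.05 was not counted. The lowest was Trp53-9 at -1.11, followed by Trp53-2 at -0.75 and Trp53-1 at -0.69, and the highest was Trp53-7 at 0.04. All kept guides were lower at day 12 than at day 8 in 1.61% of genes, and Trp53 with its 1 exception was not among them. In order from the lowest, its median for this interval was at place 139 of 1682 genes. Day 12 against day 5 gave a median of -0.09, with 4 guides above 0 and 5 below. With 1 library per day these interval values have no test.

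The high Trp53 guides were not all alike in base composition. Across non-targeting guides each further G or C base went with a log2 change higher by 0.126, 0.121 and 0.125 on days 5, 8 and 12. The kept Trp53 guides had 40% to 75% GC with a median of 55%, and the non-targeting guides 30% to 80% with a median of 55%. Trp53-7 (75% GC) and Trp53-8 (70%) had the highest changes of the kept guides at day 12. Trp53-6 (45% GC) stood at 2.26, whereas Trp53-2 (45%) and Trp53-9 (40%) had the lowest changes, 1.25 and 1.47. Trp53-3, set aside, had 65% GC and stood at 2.52. Across the 9 guides the Pearson correlation of GC bases with the day 12 change was 0.70, with a slope of 0.172 per base. These guides share a gene and in part a site, so this is a description only. With the change corrected for GC by the line through the non-targeting guides, the day 12 median of Trp53 was 1.84.

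A trend over days was tested for each guide with edgeR's quasi-likelihood test on all 5 libraries, with plasmid set to day 0, so its slopes depend on the day numbers of the titles. Its 3 residual degrees of freedom hold the difference between the plasmid libraries and how far the days lie from a line, not the spread between cultures. Of all 15336 kept guides, 17.8% rose and 22.9% fell at a Benjamini-Hochberg adjusted p under 0.05, and of the non-targeting guides alone 45.5% rose. All 9 kept Trp53 guides rose, with slopes of 0.15 to 0.28 log2 units per day and adjusted p (edgeR) from 6.64e-05 to 0.0144. The line includes the change from plasmid to day 5, so its slope is not a gain per day within the cells. Day 12 against day 5 gave a median of -0.09. With a step from plasmid to cells in place of the line all 9 rose, by 1.70 to 2.97 log2 units, where 11.6% of all kept guides rose. Without the day 12 library all 9 rose as well, with steeper slopes of 0.26 to 0.42, where 14.6% of all kept guides rose. With DESeq2's Wald test 6 of 9 passed, where 13.7% of all kept guides rose. Without plasmid library 1 or without plasmid library 2 it was also 6 of 9, where 9.15% and 10.2% of all kept guides rose. In each of these settings the guides that missed the threshold were Trp53-1, Trp53-2 and Trp53-9, with adjusted p from 0.0577 to 0.137. With each library scaled to the summed counts of the non-targeting guides, 2.86% of all guides rose and 46.9% fell. By that scaling 7 of 9 Trp53 guides rose, and Trp53-2 (adjusted p = 0.0663, edgeR) and Trp53-9 (0.0790) did not pass.

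Guides to Trp63 stayed near the non-targeting guides. The median log2 change against plasmid was 0.38 (SD 0.22, 6 guides) at day 5, 0.47 (SD 0.12) at day 8 and 0.68 (SD 0.54) at day 12, at place 95, 119 and 70 of 1682 genes from the top. The distance from the non-targeting median was -0.03, -0.07 and 0.10 at the 3 days. No day reached a median of 1.

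The Trp63 guides differed in when their share was highest. Trp63-8 had 90 and 31 reads in plasmid libraries 1 and 2, and 36, 40 and 68 reads at days 5, 8 and 12. Trp63-10 had 136 and 61 plasmid reads and 60, 61 and 94 reads in the cells. In both the gain against plasmid came mainly after day 8, and at day 12 their log2 changes were 1.55 and 1.25. The guides with the deepest plasmid coverage were flatter. Trp63-7 had 482 and 179 plasmid reads and 145, 191 and 157 reads in the cells, a log2 change of 0.32 at day 12. Trp63-1 had 342 and 140 plasmid reads and 145, 174 and 155 reads in the cells, a change of 0.73. Trp63-5 had the smallest change, 0.14, with 239 and 95 plasmid reads and 91, 96 and 71 reads in the cells. The remaining kept guide, Trp63-9, had 118 and 34 plasmid reads and 31, 44 and 43 reads in the cells, a change of 0.64.

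In the trend test 3 of 6 kept Trp63 guides rose, Trp63-1, Trp63-8 and Trp63-10, with adjusted p (edgeR) of 0.0070, 0.00214 and 0.0033. This is near the 45.5% of non-targeting guides that rose, with 17.8% of all kept guides rising. The median slope over the 6 guides was 0.06 log2 units per day. Scaled to the non-targeting guides 0 of 6 rose and 0 fell, against 2.86% and 46.9% of all kept guides. Without the day 12 library 1 of 6 rose, Trp63-1, against 14.6% of all kept guides.

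The 4 Trp63 guides set aside had 31 to 61 reads in plasmid library 1 and 11 to 23 in plasmid library 2. Trp63-4, which overlaps Trp63-8 on the opposite strand, had 42 and 11 plasmid reads and 14, 29 and 37 reads at days 5, 8 and 12. Its log2 change was 0.37, 1.36 and 1.89. Trp63-2 reached 1.54 and Trp63-6 1.16 at day 12, whereas Trp63-3 stood at -0.39 with 12 reads. Counts this low leave wide counting error, and these guides enter no median above.

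Guides to Trp73 spread to both sides. The median log2 change was 0.21 (SD 0.59, 9 guides) at day 5, 0.26 (SD 0.59) at day 8 and 0.45 (SD 0.60) at day 12, at place 367, 396 and 228 of 1682 genes from the top. This was below the non-targeting median by 0.20, 0.28 and 0.14 log2 units. At day 12, 7 guides lay above 0 and 2 below, from -0.59 to 1.30, but only 2 of the 9 lay above the non-targeting median of 0.58.

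Trp73-4 had the highest change at day 12, 1.30, with 146 and 78 reads in the plasmid libraries and 83, 81 and 115 reads at days 5, 8 and 12. The lowest, -0.59, belonged to Trp73-5, with 115 and 40 plasmid reads and 16, 18 and 19 reads in the cells. Trp73-9 was similar at -0.52, with 189 and 62 plasmid reads and 36, 36 and 32 reads in the cells. Both were already low at day 5, at -0.99 for Trp73-5 and -0.53 for Trp73-9. Trp73-9 stayed near that value. Trp73-5 was higher at day 12 than at day 5, but on 19 reads against 16, and counts this low leave wide counting error. The remaining guides lay between 0.05 and 0.73 at day 12.

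Guides on the same Trp73 bases gave different values. Trp73-1 and Trp73-2 share 19 bases on opposite strands. Trp73-1 had 226 and 104 plasmid reads and 60, 57 and 68 reads in the cells, with a log2 change of -0.30 at day 5 and 0.05 at day 12. Trp73-2 had 314 and 186 plasmid reads and 204, 199 and 175 reads in the cells, with a change of 0.77 at day 5 and 0.73 at day 12. Trp73-9 and Trp73-10 are shifted by 3 bases on the same strand. Trp73-10 had 183 and 49 plasmid reads and 54, 71 and 51 reads in the cells, a change of 0.31 at day 12 against -0.52 for Trp73-9. The guide set aside, Trp73-7, had 45 and 12 plasmid reads and changes of 1.41, 1.31 and 0.78.

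In the trend test 2 of 9 kept Trp73 guides rose, Trp73-4 (adjusted p = 0.00211, edgeR) and Trp73-2 (adjusted p = 0.0227, edgeR), and 0 fell. This share is near the 17.8% of all guides that rose and below the 45.5% of non-targeting guides that rose. Scaled to the non-targeting guides 0 of 9 rose and 3 fell, Trp73-1, Trp73-5 and Trp73-9, where 46.9% of all kept guides fell. With the GC correction the day 12 median was 0.20.

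Within the family the kept guides of Trp53 and the other genes did not overlap early. The lowest Trp53 guide stood at 1.53 at day 5 and 1.93 at day 8, at places 21 and 15 of all 15336 kept guides from the top. The highest kept guide of Trp63 or Trp73 stood at 0.77 at day 5 and 0.72 at day 8, at places 770 and 1551. At day 12 the ranges met, with Trp53 from 1.25 to 3.07, Trp63 from 0.14 to 1.55 and Trp73 from -0.59 to 1.30. The order of the medians was Trp53, Trp63 and Trp73 at all 3 days. The medians of Trp63 and Trp73 were 0.17, 0.21 and 0.24 log2 units apart at days 5, 8 and 12, and their guides overlapped at each day. This difference was not tested.

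The genes most like each member were found by the Euclidean distance between median log2 changes at days 5, 8 and 12, among 1681 other genes. No gene came close to Trp53. The nearest were Ints12 at a distance of 1.74, the nucleic acid binding protein gene Fubp1 at 1.99, Kdm5b at 2.21, Srsf6 at 2.30 and the coactivator gene Ncoa6 at 2.40. Fubp1 stood at 0.81, 0.99 and 1.48 and Ncoa6 at 0.44, 0.84 and 1.26, both climbing to day 12. All 5 had their highest median at day 12, where Trp53 had its lowest. For Trp63 the nearest were Sox4 at 0.01, Pou2f1 at 0.06 and Hira at 0.07, and for Trp73 Asb8 at 0.03, Sim2 at 0.03 and Zscan2 at 0.04. Within a distance of 0.3 lay 0 genes for Trp53, 139 for Trp63 and 356 for Trp73, so the nearest genes of Trp63 and Trp73 are some among many.

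Of 108 genes listed for the p53 pathway, 60 were targets of the library. At day 12 their median log2 change was -0.42, against 0.01 over all 1682 genes. None of the 60 had a median of 1 or more, and 15 (25.0%) had a median of -1 or less, against 15.8% of all genes. Many of these genes also act in general transcription or chromatin, and MDM2, the main ubiquitin ligase of p53, was not among the genes analysed here. The counts of falling guides below are those of the trend test, in which 22.9% of all kept guides fell. A guide below 0 at day 12 was common, since the median guide to a gene stood at -0.07.

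Of 17 listed inhibitors of p53, 6 (35.3%) had a median of -1 or less at day 12, against 15.8% of all genes. The median over the 17 was -0.69. Mdm4, which binds p53 and blocks its activity, had medians of -0.51, -0.61 and -1.60 at days 5, 8 and 12. All 7 of its kept guides lay below 0 at day 12, and 5 of 7 fell in the trend test. The lowest was Ehmt1, a histone methyltransferase gene that also modifies p53, at -3.63, with 7 of 9 guides falling. Trim28, a corepressor gene whose product works with MDM2, stood at -2.95 with 10 of 10 guides falling. The others past -1 were the deacetylase gene Hdac1 (-1.82), Klf5 (-1.15) and the zinc-finger gene E4f1 (-1.01). Bcl6, a repressor of Trp53 transcription in B cells, was the highest at 0.66, near the non-targeting median, with 7 of 7 guides above 0 and 4 of 7 rising. Of all kept guides 17.8% rose, and of the non-targeting guides 45.5%.

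Of 26 listed cofactors and activators, 9 (34.6%) had a median of -1 or less at day 12, near the 35.3% of the inhibitors and against 15.8% of all genes. The median over the 26 was -0.48. Atm, the kinase that signals DNA breaks to p53, stood at 0.03, -0.87 and -1.70 at days 5, 8 and 12. All 9 of its guides lay below 0 at day 12 and 7 of 9 fell in the trend test. Trp53bp1, a repair factor gene named for its binding to p53, stood at -0.34, -0.85 and -1.97, with 6 of 8 guides falling. The lowest was Ybx1, a nucleic acid binding protein gene, at -2.10. The others past -1 were the acetyltransferase genes Kat5 (-1.36) and Ep300 (-1.28), the histone reader gene Yeats4 (-1.94), the SWI/SNF subunit genes Smarcb1 (-1.86) and Smarca4 (-1.34), and the repair gene Brca1 (-1.84). Yeats4 stands in this list although its product is known for keeping the p53 pathway repressed in growing cells. Foxo3 was the highest at 0.57.

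The 10 genes listed as p53 targets and the 9 downstream cell cycle genes had no member past 1 either way at day 12. Of all genes 1.19% had a median of 1 or more and 15.8% of -1 or less. The targets had a median of 0.05, from Egr1 at -0.93 to Prdm1 at 0.71. The cell cycle genes had a median of -0.35, from Mybl2 at -0.75 to E2f4 at 0.70. The retinoblastoma gene Rb1, which acts in the arrest that p53 can impose, stood at -0.38, with 3 of 8 guides falling and 0 rising, against 22.9% and 17.8% of all kept guides.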

How the data were processed

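The authors deposited raw read counts per guide, 1 file per library, per the file headers. Processing used cutadapt, Bowtie and featureCounts (no version named) and mm10, per the submitters' processing notes. What the guide reads were matched to is not given in the sources used here. Libraries were grouped by their titles into plasmid (2 libraries) and days 5, 8 and 12 (1 each). Guides needed at least 30 reads in both plasmid libraries, which kept 15336, of them 14443 to genes and 893 non-targeting. TMM factors and the per-guide trend across all guides came from edgeR 4.0.16 in R 4.3.3, with Benjamini-Hochberg adjustment and a threshold of 0.05, and DESeq2 1.42.0 was an alternative. Log2 changes used a pseudocount of 1 CPM, which shrinks the changes of guides with few reads. Changes of single days have no test, and a gene is counted past a median of 1 either way. Intervals are exact binomial (Clopper-Pearson, scipy 1.17.1) at 95%. Plasmid libraries are replicates of a preparation, so p-values measure a spread that may be technical. Both computations were tested on simulated data. Symbols and coordinates are RefSeq's. The members, pathway lists and rules for named genes were chosen with earlier results of these data known. Named from the lists were, by role, the lowest and highest gene and those past 1, and Rb1 and the genes set beside Trp53 by rank were added after their values were seen. Scalings, read filters, pseudocounts, summaries over guides, a GC correction and left-out libraries were tried as alternatives.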

Additional observations from a re-analysis of the deposited data

How the results depend on the processing

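The day 12 median of Trp53, 1.79, stayed above 1 in all 12 alternatives. It moved by more than the spread between plasmid libraries when scaled to the non-targeting guides (1.13), with no read filter (2.06), with at least 100 plasmid reads (2.31), as a mean over guides (2.01) and as summed counts (2.20). Leaving out a plasmid library gave 1.72 to 1.96, of which the value without plasmid library 2, 1.96, also moved by slightly more than that spread. The spread was an SD of 0.167 for Trp53, 0.113 for Trp63 and 0.0199 for Trp73. Much smaller shifts therefore count as moved for Trp73, and the lists cannot be compared between genes. For Trp63 (0.68) the values that moved were 0.027 when scaled to the non-targeting guides, 0.97 with no read filter and 0.48 with at least 100 plasmid reads. For Trp73 (0.45) they were 0.33 with total counts, -0.21 when scaled to the non-targeting guides, 0.52 with no filter, 0.40 with at least 100 plasmid reads, 0.31 as a mean, 0.47 as summed counts and 0.20 after the GC correction. The scaling to non-targeting guides puts the median of all gene guides at day 12 at -0.72, against -0.07 with TMM, so the sign of Trp73 depends on it.

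Of kept guides rising in the trend test, at least 100 plasmid reads left 3 of 3 for Trp53, 1 of 2 for Trp63 and 1 of 3 for Trp73, since fewer guides were tested. With that filter 22.1% of all guides tested rose. Scaled to the non-targeting guides 0 rose for Trp63 and 0 for Trp73, and 438 of all guides rose and 7192 fell, against 2730 and 3506. With no filter 6 of 10 Trp63 guides rose, against 18.0% of all guides. With a step from plasmid to cells 1 of 6 did, against 11.6% of all guides. Leaving out 1 library gave 6 to 9 for Trp53, 1 to 3 for Trp63, lowest without day 12, and 1 to 2 for Trp73, lowest without plasmid library 1 or day 8. Across those fits 9.15% to 20.6% of all guides rose. The causes of these shifts were not tested. Low plasmid reads limit Trp63 most. No paired analysis was possible because the groups share fewer than 2 replicate numbers.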
